A study of Homo sapiens with 3 samples.

Results

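The activin group measured here consisted of 7 genes: the ligand subunit genes INHBA and INHBB, the receptor genes ACVR1B, ACVR2A and ACVR2B, and the follistatin genes FST and FSTL3. Members were found by gene symbol, current or older, and all 7 were present among the 17185 named genes of the array, on 10 of its 45033 probe sets. The cells came from MNNG/HOS, an osteosarcoma line of human origin. They were grown in serum-free DMEM/F12, the spheres that formed on their own in this medium were removed, and the adherent cells left behind were cultured further. The 3 groups were adherent cells kept for 5 days without added factor, cells treated for 3 days with 4 ng/mL TGF-beta1, and cells treated with the same dose for 5 days, of which only the floating spheres were collected. The fraction harvested at day 3 is not given in the labels.

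Each group was 1 culture on 1 single-colour array, so there were no replicates behind any difference and no test was made. In place of a test, a fixed size of 2-fold between a pair of arrays marked a gene as higher or lower. The values are RMA intensities on a linear scale, averaged as log2 over the probe sets of a gene. The 3 arrays had nearly the same medians, at 455 untreated, 437 at day 3 and 445 in the day 5 spheres. VIM, the mesenchymal filament gene, was bright throughout (15058 to 16930), as were the bone transcription factor gene RUNX2 (3246 to 4818) and the keratin gene KRT18 (18814 to 26114). EPCAM, an epithelial marker, stood between 1320 and 1509, while the epithelial genes CDH1 (8.59 to 10.04) and KRT19 (56.4 to 68.2) were low. Of the other osteoblast genes, SPP1 had intensities of 3436 to 6601, BGLAP 1010 to 1288, SP7 31.3 to 54.8 and IBSP 31.3 to 52.6. ALPL, the osteoblast alkaline phosphatase gene, was low (45.8 to 76.4), and the leukocyte gene PTPRC lay between 18.5 and 25.9. Against untreated cells, 1 of 7 osteoblast markers and 1 of 5 mesenchymal markers were 2-fold higher at day 3 and again in the spheres, with 0 lower, and 0 of 4 epithelial markers passed 2-fold. The osteoblast marker was COL1A1, at 1755 untreated, 10781 at day 3 and 7408 in spheres, 6.14-fold and 4.22-fold higher. The mesenchymal marker was PDGFRB, at 619 untreated, 5240 at day 3 and 2770 in spheres, 8.46-fold and 4.47-fold higher. Of 4 leukocyte markers 1 was lower and 0 higher at both stages, and of 4 endothelial markers 1 was higher and 1 lower at both. The leukocyte gene CD14 was 3.62-fold lower at day 3 and 2.54-fold in spheres, at 509 untreated, 141 and 201. The endothelial gene PECAM1 was 14.4-fold and 2.61-fold higher, at 65.6 untreated, 944 and 171. KDR was 4.70-fold and 6.37-fold lower, but dim, at 55.0 untreated, 11.7 and 8.64. The lowest quartile of gene values ended at 63.4, above all KDR values, and CD14 stayed under the median gene value of 685. KRT18, KRT19, PDGFRB, SP7, IBSP, CD14, PECAM1 and KDR were named after their values were seen. Over all genes 5.77% were higher and 5.26% lower at day 3, and 4.90% and 5.00% in spheres. The part of these markers in the results below was not tested. In bulk RNA, fewer cells that express a gene and less RNA per cell cannot be told apart. Treatment cannot be told apart from the collected fraction in the spheres, or from days of culture at day 3, where the fraction is also not known. Between spheres and day 3, days of treatment, days of culture and any difference in collected fraction cannot be told apart.

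Activins are dimers of the beta subunits encoded by INHBA and INHBB, and pairing of a beta subunit with the alpha subunit from INHA gives an inhibin, which opposes activin. An activin binds a type II receptor, ACVR2A or ACVR2B, which recruits and phosphorylates the type I receptor ACVR1B, and this receptor then phosphorylates SMAD2 and SMAD3, the same SMADs that TGF-beta uses. Follistatin, from FST, wraps around activin and keeps it from its receptors, and FSTL3 is a related secreted binder. Activin A, the dimer of INHBA subunits, is stored in bone matrix and is known to influence osteoblast and osteoclast formation.

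The subunit genes went opposite ways. In the day 5 spheres INHBA was higher and INHBB lower than in untreated cells, FST was lower at both treated stages, and the 3 receptor genes and FSTL3 stayed under 2-fold in each comparison. At day 3, 2 of the 7 members were lower and 0 higher by 2-fold than in untreated cells. Of all 17185 genes, 5.26% were lower and 5.77% higher by this rule, and of the 9285 whose highest value reached the median gene value (an intensity of 685, the level filter), 3.44% and 4.60%. In the spheres 1 member was higher and 2 were lower than untreated, against 4.90% higher and 5.00% lower of all genes, and 3.98% and 4.40% past the filter. Between spheres and day 3, 1 member was higher and 0 lower, against 5.78% and 4.72% of all genes, and 4.57% and 5.12% past the filter. The 2 lower members are FST and INHBB in both cases, and the higher one is INHBA. These 3 were the only members past the level filter, so the filtered shares stand beside 3 members and not 7. The comparisons with untreated cells share that array and are not independent of each other.

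**Figure D1:**
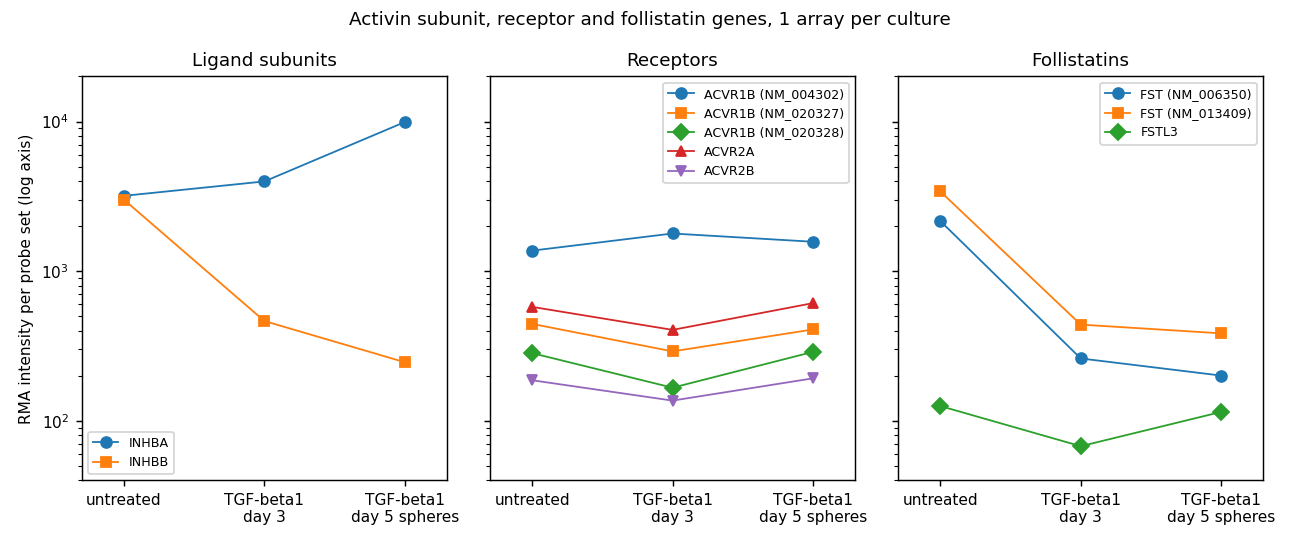
Intensity of each of the 10 probe sets of the 7 genes (log axis) on the untreated, day 3 and day 5 sphere arrays, 1 point per array, with lines joining the points of a probe set. INHBA reached 9925 in the spheres while INHBB and both FST probe sets were at 464 or less at day 3 and in the spheres, and the receptors and FSTL3 stayed within 2-fold.

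INHBA, which encodes the activin beta A subunit, had intensities of 3188 untreated, 3980 at day 3 and 9925 in the day 5 spheres. The level was highest in the spheres, and the untreated and day 3 values differed by less than 2-fold. The sphere value was 3.11-fold above untreated, a log2 difference of 1.64, and 2.49-fold above day 3. At day 3 the log2 difference from untreated was 0.32. Among the 9285 genes past the level filter, 138 (1.49%, INHBA included) were at least as much higher in spheres than in untreated cells. INHBA stands on a single probe set, as do INHBB, ACVR2A, ACVR2B and FSTL3.

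INHBB, the gene of the beta B subunit, had intensities of 3005 untreated, 464 at day 3 and 246 in the spheres. It was bright in untreated cells and low at both treated stages. The day 3 value was 6.47-fold lower than untreated (log2 -2.69) and the sphere value 12.2-fold lower (log2 -3.61). Of the 9285 genes past the level filter, 21 (0.226%) were at least that much lower at day 3 and 8 (0.0862%) in the spheres, INHBB included. INHBB passed that filter only through its untreated value, the higher side of both comparisons. These shares are therefore description and no measure of how unusual INHBB is. The spheres were 1.88-fold below day 3, short of 2-fold.

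Between spheres and untreated cells the log2 differences of INHBA and INHBB, 1.64 and -3.61, lay 5.25 apart, so that INHBA gained 38.0-fold relative to INHBB. The same gap was 3.01 between day 3 and untreated cells, or 8.08-fold, nearly all of it from INHBB. Between spheres and day 3 it was 2.23, from 1.32 for INHBA and -0.91 for INHBB. These are gaps between changes, since levels of different probe sets on an array cannot be set against each other.

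FST, the follistatin gene, was measured by a pair of probe sets named for its alternative transcripts, which encode a long and a short form of the protein. NM_013409, the transcript of the long form, had intensities of 3413 untreated, 440 at day 3 and 384 in the spheres. NM_006350, that of the short form, had 2164 untreated, 261 at day 3 and 201 in the spheres. Both were high only in untreated cells and about level between the treated stages. The long form's probe set was 7.76-fold lower at day 3 and 8.88-fold lower in spheres than in untreated cells, and the short form's 8.29-fold and 10.8-fold. The gene value was 2718 untreated, 339 at day 3 and 278 in spheres, which gave log2 differences from untreated of -3.00 and -3.29. Past the level filter, 19 of 9285 genes (0.205%) were at least as much lower at day 3 and 10 (0.108%) in the spheres, FST included. FST too passed the filter only through its untreated value, so these shares are likewise description only. Between spheres and day 3 FST differed by -0.29 in log2.

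FSTL3, the other follistatin, was dim on every array, with intensities of 126 untreated, 67.7 at day 3 and 115 in the spheres, and did not pass the level filter. The lowest quartile of gene values ended at 63.4, close to its day 3 value, and no detection calls were used. It was 1.86-fold lower at day 3 than untreated (log2 -0.89) and differed by -0.13 in the spheres. The log2 difference of FST from untreated cells minus that of FSTL3 was -2.11 at day 3 and -3.16 in the spheres.

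**Figure D2:**
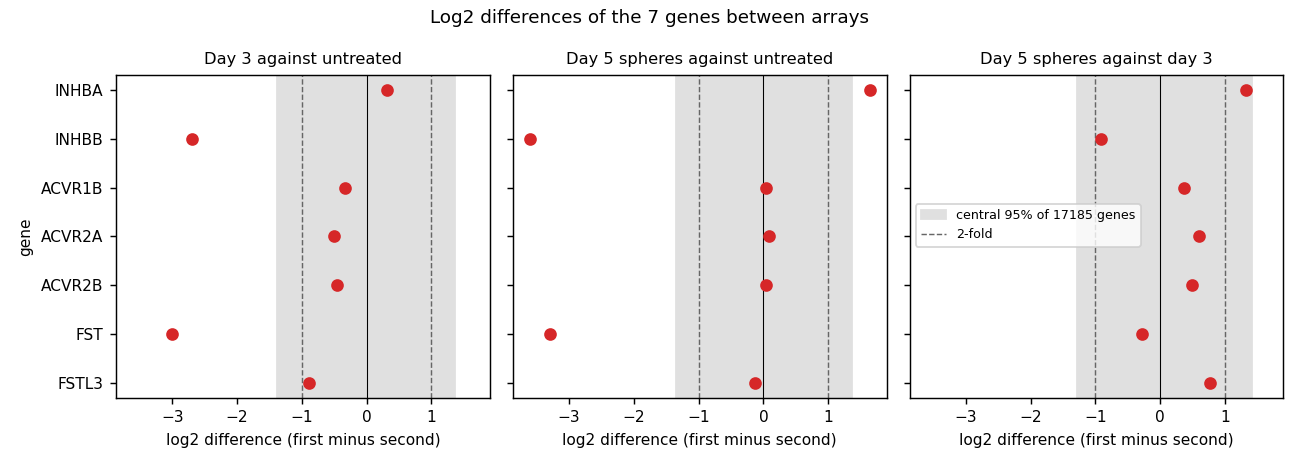
Log2 differences of the 7 genes in the 3 comparisons, first named array minus second, with the central 95% of all 17185 genes shaded and dashed lines at 2-fold. INHBB and FST lie outside the shaded range at day 3 (-2.69 and -3.00) and in the spheres (-3.61 and -3.29) against untreated cells, and INHBA lies above it in spheres against untreated cells (1.64).

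The receptor genes differed little. ACVR2A, a type II receptor gene, had intensities of 577 untreated, 405 at day 3 and 612 in the spheres. ACVR2B, the gene of the other type II receptor, had 187 untreated, 137 at day 3 and 192 in the spheres. In both the day 3 value was the lowest and the sphere and untreated values were nearly equal. The day 3 differences from untreated were -0.51 for ACVR2A and -0.45 for ACVR2B in log2, and the sphere differences were 0.08 and 0.04. Neither gene passed the level filter.

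ACVR1B, the type I receptor of activin, also known as ALK4, had a gene value of 557 untreated, 442 at day 3 and 570 in the spheres, but its 3 probe sets did not run alike. NM_004302, the brightest, had 1372 untreated, 1786 at day 3 and 1573 in the spheres. NM_020327 had 444 untreated, 291 at day 3 and 408 in the spheres, and NM_020328 had 283 untreated, 167 at day 3 and 289 in the spheres. At day 3 the first was 1.30-fold higher than untreated while the other two were 1.53-fold and 1.70-fold lower. The direction of ACVR1B therefore depends on the probe set, and all of its differences were under 2-fold.

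The 300 bases around the start of the 3 genes that passed 2-fold are shown because FST and INHBB were lower on the same arrays on which INHBA was not. They run from 250 bases before to 50 after the gene start in RefSeq, build GRCh38.p14, 5' to 3' on the gene's own strand. All 7 genes matched by symbol, ACVR1B with 2 starts. Capitals mark matches to the SMAD box CAGAC, the AP-1 site TGANTCA or the TATA box TATAAA, searched on both strands, and no matches overlap in the 3 windows.
FST promoter, chr5:53480379-53480678, plus strand: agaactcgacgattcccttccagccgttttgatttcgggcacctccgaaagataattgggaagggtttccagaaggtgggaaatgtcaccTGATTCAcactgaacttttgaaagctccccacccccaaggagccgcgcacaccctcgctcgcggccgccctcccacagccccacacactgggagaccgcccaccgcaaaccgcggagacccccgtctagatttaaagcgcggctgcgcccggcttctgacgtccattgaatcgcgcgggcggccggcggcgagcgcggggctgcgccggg
INHBB promoter, chr2:120345886-120346185, plus strand: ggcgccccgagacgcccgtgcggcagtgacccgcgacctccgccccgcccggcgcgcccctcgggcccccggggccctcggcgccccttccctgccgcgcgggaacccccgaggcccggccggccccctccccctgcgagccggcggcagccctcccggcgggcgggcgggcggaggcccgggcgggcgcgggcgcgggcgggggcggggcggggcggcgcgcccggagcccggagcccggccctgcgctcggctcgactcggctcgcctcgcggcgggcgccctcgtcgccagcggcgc
INHBA promoter, chr7:41703041-41703340, minus strand: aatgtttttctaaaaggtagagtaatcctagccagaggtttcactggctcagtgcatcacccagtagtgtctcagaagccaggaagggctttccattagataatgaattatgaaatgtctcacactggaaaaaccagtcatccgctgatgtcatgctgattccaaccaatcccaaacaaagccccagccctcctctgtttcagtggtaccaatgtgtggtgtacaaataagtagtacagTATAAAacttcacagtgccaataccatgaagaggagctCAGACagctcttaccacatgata
The FST window held 1 AP-1 match, a motif found in 7.71% of 35116 windows of this length. The INHBA window held 1 TATA box (11.5% of windows) and 1 SMAD box (45.3%). Neither motif was particular to INHBA among the members. Of those under 2-fold, ACVR2A and 1 of the ACVR1B windows held a SMAD box, and FSTL3 a TATA box. The INHBB window, 88.7% G or C against 63.7% in FST and 43.3% in INHBA, held none of these letters. A match here is a description of the letters and was not tied to any binding data.

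The genes closest to each changed member were those whose pair of log2 differences, day 3 and spheres each against untreated, lay at the smallest Euclidean distance over these 3 arrays, among genes past the level filter and leaving out the 7 members. FST and INHBB themselves lay 0.44 apart by this measure. For INHBA they were JAG1, a Notch ligand gene (distance 0.02), TTC12 (0.05) and RNF144A (0.08). JAG1 had intensities of 1544 untreated, 1945 at day 3 and 4763 in the spheres. For FST they were CPA4, a carboxypeptidase gene (0.14), ITGBL1 (0.42) and SKAP1, a T cell adaptor gene (0.52). For INHBB they were SKAP1 (0.08), CPA4 (0.55) and the transcription factor gene SOX7 (0.72). CPA4 had intensities of 1657 untreated, 187 at day 3 and 170 in the spheres, and SKAP1 had 947 untreated, 150 at day 3 and 74.1 in the spheres. CPA4 and SKAP1 were each listed for both FST and INHBB, CPA4 closer to FST and SKAP1 closer to INHBB. FST and INHBB share the pattern of a high untreated value and low treated values. Genes picked by closeness to them have that pattern by selection, so the shared names are no separate result. CPA4, SKAP1, ITGBL1 and SOX7 also passed the level filter only through their untreated values, and TTC12 only through its sphere value.

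The rest of the activin pathway was described with 10 lists of 68 genes in all. Of these, 11 (16.2%) were higher and 4 (5.88%) lower by 2-fold at day 3 than untreated, beside 5.77% and 5.26% of all genes, with a median log2 difference of 0.20 against -0.01 for all genes. In the spheres 8 (11.8%) were higher and 7 (10.3%) lower than untreated, beside 4.90% and 5.00% of all genes, with a median of 0.07 against 0.01 for all genes. Between spheres and day 3, 6 (8.82%) were higher and 8 (11.8%) lower, beside 5.78% and 4.72%, with a median of -0.04 for both the lists and all genes. Many of these genes were dim and did not pass the level filter, as the open points of the plot of the lists show. The lists were chosen with earlier results of these data known, so their shares beside those of all genes are description only.

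**Figure D3:**
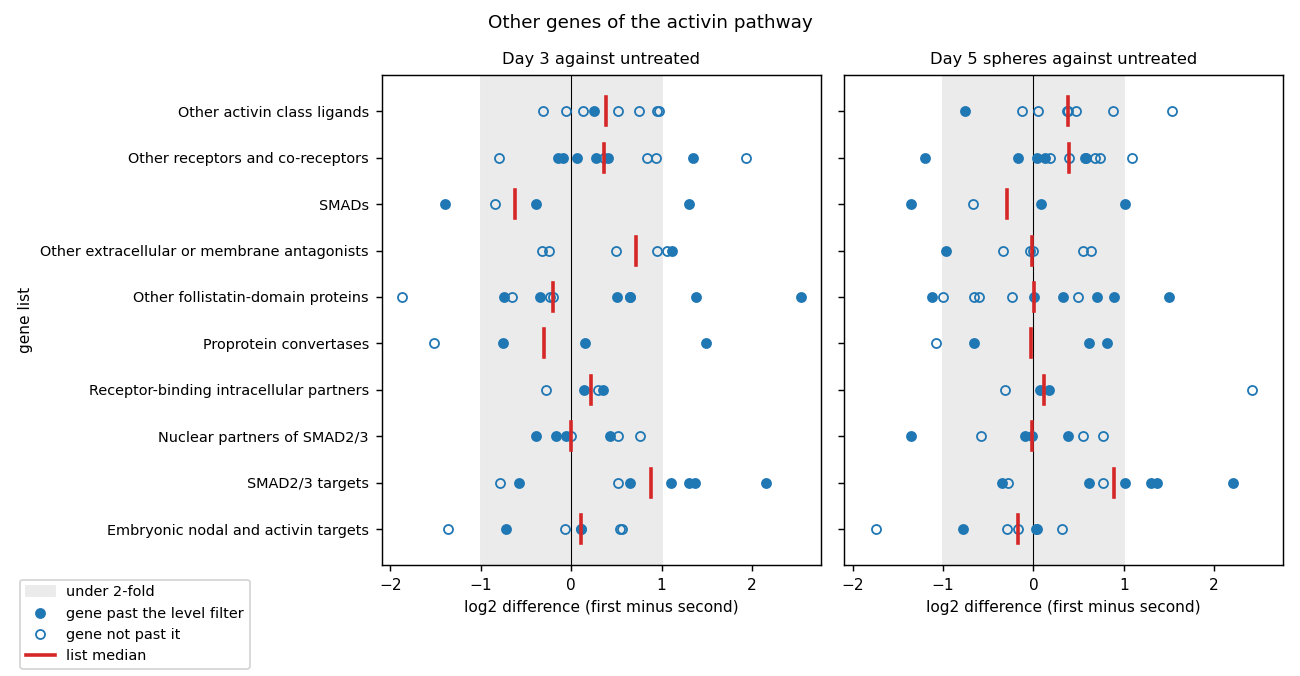
Log2 differences of the genes of each of 10 pathway lists at day 3 and in day 5 spheres, each minus untreated. Filled points passed the level filter, open points did not, red bars are list medians and the shaded band is under 2-fold. SMAD2/3 targets had medians of 0.88 at day 3 and 0.89 in the spheres.

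Among 8 other ligands of the class, 1 of which passed the level filter, 0 were 2-fold higher or lower at day 3 and 1 was higher in the spheres, with medians of 0.39 and 0.38. INHA, the inhibin alpha subunit gene, was at 129 untreated, 254 at day 3 and 238 in spheres, 1.97-fold and 1.84-fold above untreated. INHBE, another beta subunit gene, was 2.89-fold higher in spheres but at the low intensities of 54.8 against 19.0 in untreated cells. GDF1, a nodal partner, was 1.69-fold higher at day 3. GDF11, a ligand that also uses ACVR2B and is bound by follistatin, was at 943 in spheres against 1890 at day 3, just past 2-fold lower.

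Of 11 other receptors and co-receptors, 2 were higher by 2-fold and 0 lower at day 3, and 1 was higher and 1 lower in the spheres, with medians of 0.36 and 0.39. BMPR2, a BMP type II receptor gene, was 2.54-fold higher at day 3, at 1374 against 540 in untreated cells. TGFBR3, the co-receptor betaglycan, which helps inhibin to block activin, was 2.29-fold lower in spheres, at 317 against 726. BMPR1B, a BMP type I receptor gene, was 2.13-fold higher in spheres, at 348 against 163. ACVR1C, the type I receptor ALK7 of nodal and activin B, was 3.83-fold higher at day 3 but at 39.3 against 10.2 in untreated cells, among the lowest values.

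Among 4 SMAD genes, 1 was higher and 1 lower at both treated stages, with medians of -0.62 at day 3 and -0.29 in spheres. SMAD3, a signal carrier of activin and TGF-beta, was at 7296 untreated, 2781 at day 3 and 2843 in spheres, 2.62-fold and 2.57-fold below untreated. SMAD7, the inhibitory SMAD, was 2.47-fold higher at day 3 and 2.02-fold in spheres. SMAD2, the other carrier, differed by -0.85 and -0.67 in log2, and the shared partner SMAD4 by -0.39 and 0.08.

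Of 8 SMAD2/3 targets that activin shares with TGF-beta, 4 were higher by 2-fold and 0 lower at both treated stages, with medians of 0.88 at day 3 and 0.89 in the spheres. JUNB, an AP-1 subunit gene, was 4.44-fold higher at day 3 and 4.63-fold in spheres. PMEPA1, which encodes a feedback inhibitor, was 2.58-fold and 2.57-fold higher, and CDKN1A, a cell cycle inhibitor gene, 2.16-fold and 2.46-fold. SMAD7 was the other. Of 7 targets known from the embryo, 1 was lower and 0 higher at each treated stage, with medians of 0.11 at day 3 and -0.18 in the spheres. GSC, a homeobox gene, was 3.34-fold lower in spheres, at 181 against 603 in untreated cells. EOMES, a T-box gene, was 2.57-fold lower at day 3, at 46.2 against 119. FOXA2, a forkhead gene, was 1.65-fold and 1.71-fold lower, and TBXT, another T-box gene, stayed between 54.8 and 90.0.

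Among 6 other antagonists, 2 were higher by 2-fold at day 3 and 0 passed 2-fold in the spheres, with medians of 0.72 and -0.02. BAMBI, a decoy receptor gene, was at 1039 untreated, 2253 at day 3 and 531 in spheres, which made it 2.17-fold higher at day 3 than untreated and 4.25-fold lower in spheres than at day 3. WFIKKN1, which encodes a binder of GDF11 and myostatin, was 2.08-fold higher at day 3, at 264 against 127. LEFTY1, a nodal inhibitor gene, differed by 0.95 and 0.55 in log2, and WFIKKN2 by 0.49 and 0.00.

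Of 11 other genes with follistatin domains, 2 were higher and 1 lower by 2-fold at day 3, and 1 was higher and 2 lower in the spheres, with medians of -0.20 and 0.01. SMOC1, a matrix protein gene, was 5.83-fold higher at day 3, at 900 against 154 in untreated cells, and stood at 155 in spheres. TMEFF2, a transmembrane protein gene, was 3.67-fold lower at day 3, at 28.5 against 104. TMEFF1, a related gene, was 3.12-fold higher in spheres than at day 3, at 1083 against 347. AGRN, which encodes the proteoglycan agrin, was 2.18-fold lower in spheres than in untreated cells, at 2114 against 4611. SPOCK1, a proteoglycan gene named after its values were seen, was 2.60-fold higher at day 3 and 2.84-fold in spheres. FSTL5, also named after its values were seen, lay at the 2-fold limit in spheres, at 22.0 against 43.9 in untreated cells.

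The 4 proprotein convertase genes, whose products cut activin precursors and related ligands, split 1 higher and 1 lower at day 3 and 0 higher and 1 lower in the spheres, with medians of -0.30 and -0.02. FURIN was 2.81-fold higher at day 3, at 2176 against 775 in untreated cells, and 1.76-fold higher in spheres. PCSK6, on 4 probe sets and dim, was 2.86-fold lower at day 3 and 2.12-fold lower in spheres. Its sphere call depended on the summary of its probe sets. With their median in place of the mean, 6 instead of 7 pathway genes were lower in spheres than untreated. PCSK6 was the only one of those 7 on more than 1 probe set. PCSK5 was 2.58-fold higher in spheres than at day 3, at 981 against 380, and PCSK7 differed by 0.15 and -0.66 from untreated in log2.

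Among 4 partners of the receptors, 0 passed 2-fold at day 3 and 1 was higher in spheres, with medians of 0.22 and 0.12. MAGI2, a scaffold gene whose mouse product binds ACVR2A, was 5.36-fold higher in spheres, at 468 against 87.4 in untreated cells. SYNJ2BP, the gene of another ACVR2A partner in mouse, and FKBP1A, whose product binds type I receptors, differed by 0.35 or less in log2 from untreated, and IGSF1 stayed at 19.7 or below. Of 7 nuclear partners of SMAD2/3, 0 passed 2-fold at day 3 and 1 was lower in spheres, with medians of 0.00 and -0.02. FOXL2, a forkhead factor known in mouse pituitary cells to act with SMADs on the follistatin gene, was 2.57-fold lower in spheres, at 584 against 1498 in untreated cells, and differed by -0.17 at day 3. FOXH1, another forkhead gene, and the repressor genes SKI and SKIL stayed under 2-fold, with log2 differences at day 3 of 0.76, 0.00 and 0.52.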

How the data were processed

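Total RNA from 3 MNNG/HOS cultures was hybridised to 1 array each. The deposited intensity values were made by the authors with RMA, per the submitters' processing notes, and lie on a linear scale; the sources used here name no version, scanner or step back to a linear scale. RMA makes the arrays' distributions alike, which would hide a shift common to most genes, and it compresses differences at low intensity. No detection calls were used.

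Of 45033 probe sets, 18188 were named from the platform's gene table, updated to current symbols, and 678 by RefSeq accession; 26167 stayed unnamed and were not used. Gene values were means of log2 intensity over probe sets, with no offset (Python 3.11.15, pandas 2.3.3, numpy 2.4.6). Differences were first named array minus second and called at 2-fold. The calling code was also run on simulated data with planted shifts beyond 2-fold and little noise. That run checks the arithmetic only and gives no rate of false calls for these arrays.

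The text names all 7 members, up to 4 genes per list with the largest difference, the 3 nearest genes to each changed member, and a few identity markers. Members and lists were chosen with earlier results of these data known. Alternatives covered the probe set summary, scaling, an offset of 64, thresholds and the level filter. The number of arrays limits the precision.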

Additional observations from a re-analysis of the deposited data

How the results depend on the processing

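No paired analysis was possible because each group had 1 array, and no replicate could be left out. The 7 members' log2 differences kept their side of 2-fold under the brightest probe set, the median over probe sets, centring, quantile normalization and 64 added before log2, in all 105 recomputed values. Part of this was fixed in advance. INHBA, INHBB, ACVR2A, ACVR2B and FSTL3 have 1 probe set each, so the brightest and median settings could not change them. The median could not change FST, which has 2 probe sets. Over these settings INHBA in spheres against untreated ran from 1.62 to 1.67, INHBB from -3.61 to -3.31 and FST from -3.29 to -3.01. ACVR1B changed sign, from -0.61 to 0.38 at day 3 against untreated, always under 2-fold. At a 1.5-fold threshold 3 members were higher and 1 lower in spheres against day 3, and at 3-fold 0 were higher. Of the 68 pathway genes, 21 were higher and 11 lower at day 3, 18 higher and 14 lower in spheres against untreated, and 13 lower in spheres against day 3 at 1.5-fold. At 3-fold the counts were 3, 1, 2, 1 and 4 in the same order. With 64 added, 1 was lower at day 3 and 5 were higher in spheres against untreated, since dim genes differ less after an offset. The share of all genes past 2-fold rested on the level filter. Without it 5.26% were lower at day 3, and with a filter at the upper quartile 2.57% were higher and 1.15% lower at day 3, 2.07% and 1.97% in spheres against untreated, and 1.42% and 2.51% in spheres against day 3. The nearest genes were less stable: 1 of 3 for INHBB and 2 of 3 for FST recurred with 64 added, and 2 of 3 for FST with the brightest probe set.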
